A study of Mus musculus with 5 samples.

Results

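The CC chemokines described here are 10 genes, Ccl2, Ccl3, Ccl4, Ccl5, Ccl7, Ccl8, Ccl12, Ccl17, Ccl22 and Ccl24, taken by symbol from the 24982 rows of the authors' deposited Cuffdiff table, each with 1 row of its own. The RNA is that of tumor macrophages, isolated ex vivo from mice bearing the MCA fibrosarcoma line 9609, with 3 libraries in the MEK1-hi group and 2 in the MEK1-low group. In the labels, MEK1-hi and MEK1-low name the cell line and the genotype, and they also name the exosomes given as treatment (vesicles released by cells), so line and exosomes cannot be told apart. The MEK1-low exosomes carry the note GFP, and the table calls the groups GFP_exo (MEK1-low) and MEK1_exo (MEK1-hi). Growing and rejecting tumors are mentioned in the title of the series, but neither word is tied to a group. The labels state no mouse strain or age, nor what drives MEK1, nor whether animals were pooled. Higher and lower always mean in MEK1-hi compared with MEK1-low.

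CC chemokines are small secreted proteins with a pair of adjacent cysteines. They bind G protein-coupled receptors on leukocytes and draw them along a gradient, and tumor macrophages are a well-known source. Ccl2, Ccl7 and Ccl12 recruit monocytes through Ccr2. Ccl3, Ccl4 and Ccl5 draw T cells, NK cells and myeloid cells, Ccl3 and Ccl5 in part through Ccr1. Ccl17 and Ccl22 attract Ccr4-bearing T cells, regulatory T cells among them, and Ccl24 attracts eosinophils through Ccr3. In the mouse, Ccl8 is an agonist of Ccr8.

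Each gene has 1 FPKM per group in the authors' deposited table (a fragment count scaled by transcript length and library size, so that levels can be compared between genes), pooled over that group's libraries. No value per library, SD or overlap between libraries can therefore be given, and the labels state a planned depth of 25000000 reads but no depth reached. Error is expressed by Cuffdiff's test statistic and its q value, the p adjusted over all tested rows, with a call at a q of at most 0.05. Since no label ties libraries to separate animals, p and q cover the spread between these libraries alone, and that spread may be technical. Macrophage markers were present. All 9 listed ones, among them Adgre1 (388 and 411 FPKM) and Csf1r (680.1 and 628 FPKM), were above 1 FPKM in both groups. Cuffdiff called 0 of 9 in the authors' deposited table. Some fibroblast and tumor markers had levels of the same order as Adgre1. Postn had 471 and 371 FPKM, Col3a1 454 and 290, and Col1a1 421 and 281, while Col1a2, Dcn and Pdgfrb lay below Adgre1. Purity of the macrophages was not measured.

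Of the 10 CC chemokines, Ccl5 was called higher and Ccl17 lower, and the other 8 were not called. Over all 12311 tested rows of the authors' deposited table, 1.32% were called, 0.999% higher and 0.325% lower. An unadjusted Cuffdiff p under 0.05 was found for 4 of the 10 (Ccl5 and Ccl8 higher, Ccl12 and Ccl17 lower), against 6.08% of tested rows. The median log2 fold change of the 10 was -0.24, with 3 above 0 and 7 below. Over the 11350 tested rows with an FPKM of at least 1 in a group, the median was -0.02. With 10 genes chosen by name, these counts describe the set and were not tested against other sets.

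The CC chemokines spanned a wide range of levels. In both groups 7 of the 10 exceeded 100 FPKM, whereas Ccl17 and Ccl22 lay between 3.73 and 15.9 FPKM and Ccl24 under 1. Ccl8 was the most abundant, at rank 45 of 24982 rows in MEK1-low and rank 23 in MEK1-hi. The order in MEK1-low was Ccl8, Ccl2, Ccl4, Ccl7, Ccl3, Ccl12, Ccl5, Ccl17, Ccl22 and Ccl24. In MEK1-hi it was Ccl8, Ccl2, Ccl4, Ccl7, Ccl3, Ccl5, Ccl12, Ccl22, Ccl17 and Ccl24, so Ccl5 and Ccl12 changed places, as did Ccl17 and Ccl22. Whether neighbors in these orders differ beyond the spread of libraries could not be tested.

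**Figure D1:**
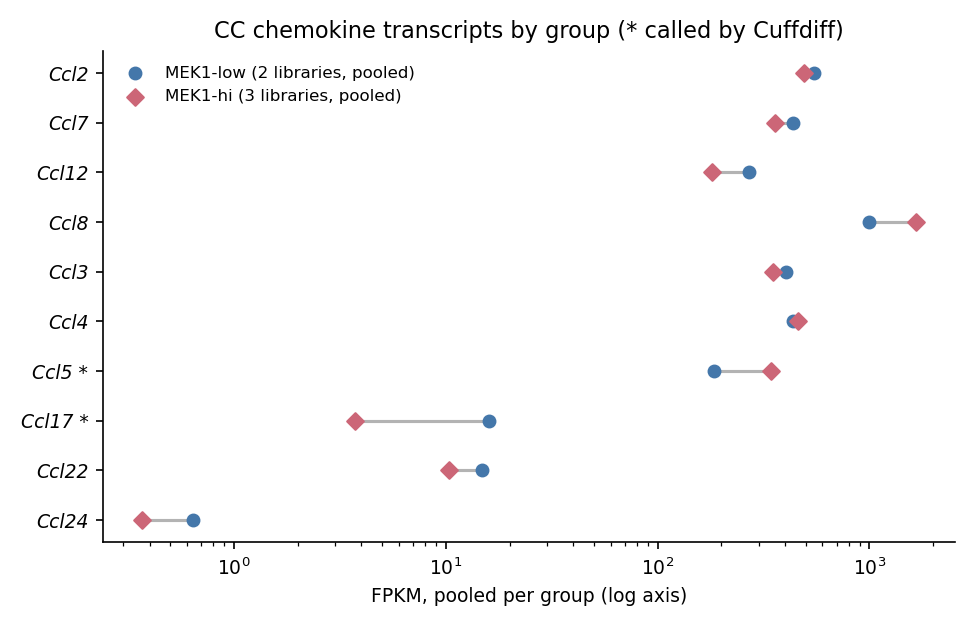
FPKM of the 10 CC chemokines on a log axis, 1 pooled value per group in the authors' deposited table (circles MEK1-low, diamonds MEK1-hi), with no error bars because no values per library are given. Ccl17 shows the widest separation, 15.9 against 3.73 FPKM, and Ccl8 lies farthest to the right in both groups.

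Added together, the 10 genes had 3308 FPKM in MEK1-low against 3855 in MEK1-hi, a ratio of 1.17. Ccl8 alone made up 30.2% of that sum in MEK1-low and 43.0% in MEK1-hi. Without it the sums were 2309 and 2196 FPKM. By value, the share of Ccl2, Ccl7 and Ccl12 together was 37.9% and 26.7%, and that of Ccl3, Ccl4 and Ccl5 was 31.0% and 29.8%. In bulk samples, fewer cells of a type and less RNA per cell cannot be told apart, and this holds for every value here.

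Among the monocyte attractants, all lay below 0 and none was called. Ccl2, the main ligand of Ccr2, stood at 549 FPKM in MEK1-low against 492 in MEK1-hi in the authors' deposited table (log2 fold change -0.16, statistic -0.39, q = 0.9998). Ccl7 had 435 and 359 FPKM (-0.28 on the log2 scale, q = 0.9998). Ccl12, a mouse relative of Ccl2, had 269 and 180.1 FPKM (-0.58 on the log2 scale, statistic -1.54, unadjusted p = 0.0182, q = 0.478 in the authors' deposited table). By value, the distance from 0 grew in the order Ccl2, Ccl7 and Ccl12, which is also their order on the chromosome. That order is not a run of neighbors, since Ccl11 lies between Ccl7 and Ccl12 and was above 0 (0.28 on the log2 scale, under 1 FPKM). Fibroblasts and tumor cells can also make Ccl2 and Ccl7. All 6 of their listed markers (Col1a1, Col1a2, Col3a1, Dcn, Pdgfrb, Postn) were lower and 0 of 6 called in the authors' deposited table. Col1a2 was close to a call, at 198 and 90.6 FPKM (q = 0.0531 in the authors' deposited table). Col1a2, Dcn (47.8 and 26.2 FPKM) and Pdgfrb (14.9 and 9.35 FPKM) had an unadjusted p under 0.05 in the authors' deposited table. Together the 6 markers had 1607 FPKM in MEK1-low against 1068 in MEK1-hi. The part of fibroblasts and tumor cells in the Ccl2 and Ccl7 values was not tested.

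Ccl8 lay on the other side of 0 from these neighbors. Its level was 999 FPKM in MEK1-low against 1659 in MEK1-hi, a difference of 660.2 FPKM, which was the largest in absolute terms among the 10. The log2 fold change was 0.73 (statistic 1.77, unadjusted p = 0.0073), and at q = 0.27 it was not called in the authors' deposited table. Of all tested rows, 332 (2.70%) had a smaller p. Ccl8 exceeded Ccl12, the next CC gene on the chromosome, 3.72-fold in MEK1-low and 9.21-fold in MEK1-hi. Their log2 fold changes differed by 1.31, a difference that cannot be tested without values per library. Monocyte markers lay on the same side of 0 as Ccl8. Ly6c2, Plac8, Ccr2 and Chil3 were all higher, 2 of the 4 called in the authors' deposited table, and their summed FPKM was 188 and 343. Their part in the Ccl8 values was not tested.

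The upstream sequences of Ccl12 and Ccl8 are shown because these neighbors had opposite signs. They are the 250 bases before each RefSeq start on GRCm38.p6, plus strand, written 5′ to 3′, for Ccl12 at chr11:82101595-82101844 and for Ccl8 at chr11:82114935-82115184. Capitals mark matches to any of 6 motifs searched.

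Ccl12: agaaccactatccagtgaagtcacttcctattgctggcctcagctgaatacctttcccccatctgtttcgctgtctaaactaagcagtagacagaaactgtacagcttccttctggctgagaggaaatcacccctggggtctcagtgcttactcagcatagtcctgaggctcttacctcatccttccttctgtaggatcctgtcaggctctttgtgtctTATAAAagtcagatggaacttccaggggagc
Ccl8: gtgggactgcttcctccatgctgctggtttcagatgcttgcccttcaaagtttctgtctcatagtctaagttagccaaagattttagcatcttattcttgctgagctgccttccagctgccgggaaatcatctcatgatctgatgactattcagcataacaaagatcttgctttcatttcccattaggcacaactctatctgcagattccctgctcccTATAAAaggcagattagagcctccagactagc

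Both hold TATAAA, beginning 31 bases before the start in Ccl12 and 32 in Ccl8. Of all 32851 upstream windows of this length in the RefSeq table, 12.4% hold it on either strand. In a global alignment of the windows, 150 of 250 bases (60.0%) were identical, the highest of the 10 pairs among the 5 members with an entry (Ccl3, Ccl8, Ccl12, Ccl17, Ccl22), where the range was 49.2% to 60.0%. The 6 motifs were TTCNNNNGAA, GGGNNNNNCC, TGANTCA, TTGCNNAA, GAAANNGAAA and TATAAA, each on both strands. A match describes letters only.

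Among Ccl3, Ccl4 and Ccl5, which attract T cells and NK cells, Ccl5 rose and the other two did not pass the test. Ccl5 (XLOC_003996, mm10 chromosome 11, 83525779 to 83530518) was at 184 FPKM in MEK1-low against 342 in MEK1-hi in the authors' deposited table. That is a 1.85-fold difference (log2 fold change 0.89), for which the authors' deposited table gives a statistic of 2.40, an unadjusted p = 0.00035 and q = 0.0315. Ccl3 had 405 and 351 FPKM in that table (log2 fold change -0.21, q = 0.9998). Ccl4, which lies next to Ccl3 and is often induced with it, had 436 and 458 FPKM (log2 fold change 0.07, or -0.03 after rescaling to equal FPKM sums, q = 0.9998). Ccl3 was 2.20-fold above Ccl5 in MEK1-low, and in MEK1-hi the pair stood at 1.03 to 1. Summed, the 3 genes had 1025 and 1151 FPKM.

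T cells and NK cells also make Ccl5. All 6 listed NK cell markers (Ncr1, Klrb1c, Gzma, Prf1, Eomes, Klre1) were higher in MEK1-hi, yet each was under 1 FPKM in both groups, with summed levels of 1.12 and 2.20 FPKM. Of the 7 T cell markers, 6 were found, all 6 higher, with sums of 9.38 and 15.8 FPKM. None of the listed T cell or NK cell markers was at 0. Cuffdiff called 0 of them in the authors' deposited table, but Klre1, Klrb1c, Ncr1 and Eomes were not tested by it. Cd8a and Prf1 had an unadjusted p under 0.05 in the authors' deposited table, and the other tested ones did not. The part of T cells and NK cells in the Ccl5 values was not tested.

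Both Ccr4 ligands lay below 0, and Ccl17 fell most of all 10 genes. Ccl17 (XLOC_021565, mm10 chromosome 8, 94810453 to 94812036) was at 15.9 FPKM in MEK1-low against 3.73 in MEK1-hi in the authors' deposited table. The level was 4.27-fold lower (log2 fold change -2.09), for which the authors' deposited table gives a statistic of -2.64, an unadjusted p = 0.0003 and q = 0.0276. Ccl22, which shares the receptor and lies in the same cluster, had 14.8 and 10.3 FPKM (log2 fold change -0.52, statistic -1.13, unadjusted p = 0.075, q = 0.942 in the authors' deposited table). In MEK1-low the pair was near parity, with Ccl17 at 1.08 times Ccl22, while in MEK1-hi Ccl22 was 2.77-fold above Ccl17. The difference between their log2 fold changes was 1.58 and could not be tested. Ccl24 had 0.641 and 0.366 FPKM (log2 fold change -0.81, or -0.26 with a pseudocount of 1 FPKM, q = 0.9998), under 1 FPKM in both groups.

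The calls for Ccl5 and Ccl17 held at q thresholds of 0.05 and 0.10. Both were lost at 0.01 and under the Benjamini-Yekutieli adjustment, and that for Ccl5 also with a minimum of 2-fold. The smallest deposited p was 5e-05, shared by 91 rows, and only these 91 rows were called at 0.01. Under Benjamini-Yekutieli even rows at that floor were lost and 0 of the 12311 tested rows were called. That loss is therefore not particular to Ccl5 or Ccl17. A normal p computed from the deposited statistic, adjusted in the same way as q, gave 0.9999 for Ccl5 and 0.983 for Ccl17.

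Dendritic cells are another source of Ccl17 and Ccl22. Of the 5 markers listed for cDC2 (conventional type 2 dendritic cells), Mgl2 was called lower (35.1 to 6.76 FPKM, q = 0.00676). Cd209a had 9.68 and 4.64 FPKM (unadjusted p = 0.0075, q = 0.274 in the authors' deposited table). Flt3 went the other way, with 2.42 and 5.02 FPKM (unadjusted p = 0.00335, q = 0.168 in the authors' deposited table). Neither was called. Clec10a had 11.8 and 10.1 FPKM and Sirpa 280.4 and 309 in the authors' deposited table. The sums over the 5 markers were 339.5 and 336 FPKM, most of it Sirpa, which macrophages express too. The 4 markers of migratory dendritic cells other than Ccl22 (Ccr7, Fscn1, Cacnb3, Socs2) had sums of 85.1 and 75.2 FPKM, 3 of 4 lower and 0 called. The 4 markers of cDC1 (conventional type 1 dendritic cells) were all higher, with sums of 18.1 and 44.9 FPKM. Of these Clec9a (0.931 and 5.58 FPKM, q = 0.00676), Cadm1 (10.6 and 29.1, q = 0.00676) and Xcr1 (1.53 and 4.17, q = 0.0163) were called in the authors' deposited table, and Tlr3 was not (q = 0.9998). Markers of dendritic cell subsets thus lay on both sides of 0. None of these markers was at 0, and their part in the Ccl17 values was not tested.

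The upstream windows of the pair are shown because the ligands share a receptor and a cluster and differed in size of change. They are again 250 bases before the RefSeq start on GRCm38.p6, plus strand, at chr8:94810203-94810452 for Ccl17 and chr8:94745434-94745683 for Ccl22, with matches to the 6 motifs in capitals.

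Ccl17: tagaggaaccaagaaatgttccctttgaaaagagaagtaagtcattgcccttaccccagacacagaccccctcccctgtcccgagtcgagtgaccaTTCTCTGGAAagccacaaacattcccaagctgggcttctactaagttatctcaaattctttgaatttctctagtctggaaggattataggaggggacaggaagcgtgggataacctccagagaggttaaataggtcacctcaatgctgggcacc
Ccl22: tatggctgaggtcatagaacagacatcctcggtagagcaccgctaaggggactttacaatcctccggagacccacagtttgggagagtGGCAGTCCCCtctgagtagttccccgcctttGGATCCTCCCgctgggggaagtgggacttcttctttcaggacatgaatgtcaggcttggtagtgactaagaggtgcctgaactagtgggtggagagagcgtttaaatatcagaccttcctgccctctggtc

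In Ccl17, TTCTCTGGAA begins 154 bases before the start and has the TTCNNNNGAA form that STAT6 is known to favor, which 5.85% of all windows hold. The Ccl22 window does not hold this form. It has a pair of reverse-strand matches to GGGNNNNNCC, a loose NF-kB-like pattern found in 45.8% of windows, beginning 162 and 131 bases before the start. TGANTCA (6.75% of windows), TTGCNNAA (9.56%) and GAAANNGAAA (2.98%) had no match in any of the 5 members' windows.

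Genes of the IL-4 and STAT6 response are given beside Ccl17, Ccl22 and Ccl24, which this pathway induces in macrophages. Of 18 listed genes 17 were tested in the authors' deposited table, 2 were called lower and 0 higher, and at an unadjusted p under 0.05 there were 5 lower and 1 higher. Their median log2 fold change was -0.02, beside -0.02 over all tested rows with an FPKM of at least 1. The called ones were the lectin gene Mgl2 and the arginase gene Arg1, which went from 32.8 to 10.6 FPKM (log2 fold change -1.62, q = 0.00676 in the authors' deposited table). Mgl2, Clec10a and Cd209a are on this list and are also cDC2 markers given above, so these are the same rows. The genes Mrc1 (236 and 142 FPKM, unadjusted p = 0.017) and Egr2 (82.1 and 53.9 FPKM, unadjusted p = 0.0211) were lower in the authors' deposited table without being called. The receptor chain gene Il4ra had 72.1 and 82.7 FPKM and Stat6 45.7 and 48.7 FPKM, neither called (q = 0.9998 for each in the authors' deposited table). The receptor and kinase genes Il4ra, Il13ra1, Il2rg and Jak1 lay between -0.01 and 0.49 on the log2 scale.

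**Figure D2:**
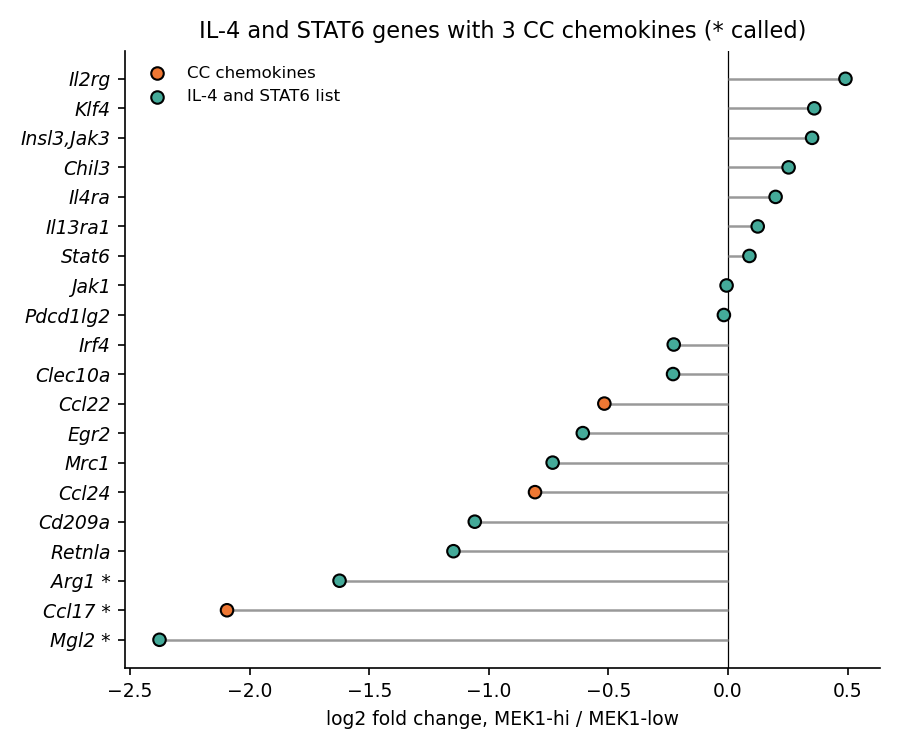
Log2 fold change (MEK1-hi over MEK1-low) of the 17 tested IL-4 and STAT6 genes and of Ccl17, Ccl22 and Ccl24, from pooled FPKM, with an asterisk for genes called by Cuffdiff. Mgl2 (-2.38), Ccl17 (-2.09) and Arg1 (-1.62) form the lower end, and Il2rg (0.49) the upper end.

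The chemokine genes sit in clusters, and values of both signs occurred within a cluster. The chromosome 11 cluster from Ccl2 to Ccl1 (mm10, 82035577 to 82179812) holds 6 CC genes over 144 kb, of which Ccl11 and Ccl8 were above 0 and Ccl2, Ccl7, Ccl12 and Ccl1 below. Ccl11, which encodes eotaxin, and Ccl1, a ligand of Ccr8, were both under 1 FPKM in each group. The cluster from Ccl5 to Ccl4 on the same chromosome (83525779 to 83664683) spans 139 kb. There Ccl5 (0.89) stands beside Ccl9, which had 72.0 and 44.3 FPKM (log2 fold change -0.70, unadjusted p = 0.00385, q = 0.182 in the authors' deposited table). Ccl6 had 42.6 and 45.7 FPKM (log2 fold change 0.10, q = 0.9998). On chromosome 8, Cx3cl1 lies between Ccl22 and Ccl17 and had 5.75 and 6.82 FPKM (log2 fold change 0.25, q = 0.9998).

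**Figure D3:**
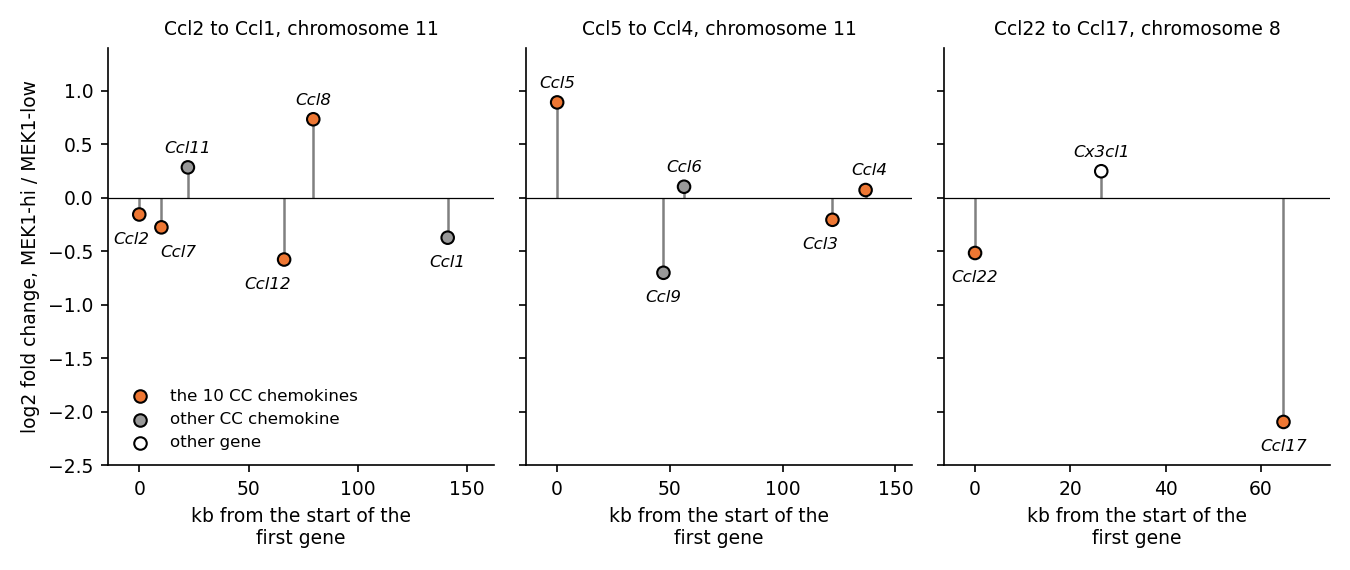
Log2 fold change (MEK1-hi over MEK1-low) of the tested genes in 3 chemokine clusters, placed by distance in kb from the start of the first gene. Both signs occur in each cluster, as between Ccl12 (-0.58) and Ccl8 (0.73) and between Ccl5 (0.89) and Ccl9 (-0.70).

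The members share a fold and descent, so stretches of sequence common to them were counted. In GENCODE M21 transcripts, 0 of the 100-base windows of the longest coding transcript of any member occurred in a transcript of another gene, and likewise 0 of the 50-base windows. The longest exact run shared by a pair of the members was 23 bases, between Ccl2 and Ccl7.

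The other CC chemokines were scarce apart from Ccl6 and Ccl9. Of 13 listed symbols, 11 were found in 14 rows, 6 rows were tested and 0 were called by Cuffdiff in the authors' deposited table, with 1 at an unadjusted p under 0.05, Ccl9. Ccl27a and Ccl25, which serve skin and gut homing, had at most 1.84 FPKM. Ccl19, Ccl21c and Ccl26 made up the 6 rows listed at 0 in both groups, none of them tested. Sequence shared with other genes was not counted for them. Among the CXC, CX3C and XC chemokines, 15 of 17 were tested, 2 called higher (Cxcl9 and Cxcl10) and 1 lower (Pf4), with a median log2 fold change of 0.16 beside -0.24 for the 10 CC genes. That difference in medians was not tested.

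On the receptor side, Ccr1 and Ccr2 were well above 1 FPKM in both groups and Ccr3, Ccr4 and Ccr8 below it. Of 15 CC and atypical receptors 8 were tested, and Cuffdiff called 0 in the authors' deposited table, with 0 at an unadjusted p under 0.05 and a median log2 fold change of 0.23. Ccr2 had 44.3 and 59.6 FPKM (unadjusted p = 0.0668, q = 0.901) and Ccr1 79.1 and 56.3 FPKM (p = 0.0554, q = 0.855) in the authors' deposited table. Ccr1 thus lay below 0, at -0.49 on the log2 scale, and Ccr2 above 0, at 0.43. Ccr8 had 0.560 and 0.298 FPKM (q = 0.9998). Ccr3 (0.328 and 0.232 FPKM), Ccr4 (0.0722 and 0.0412) and the scavenging receptor gene Ackr2 (0.263 and 0.164) were not tested by Cuffdiff. The atypical receptor gene Ccrl2, which binds chemerin, was the most abundant of the list at 298 and 325 FPKM.

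**Figure D4:**
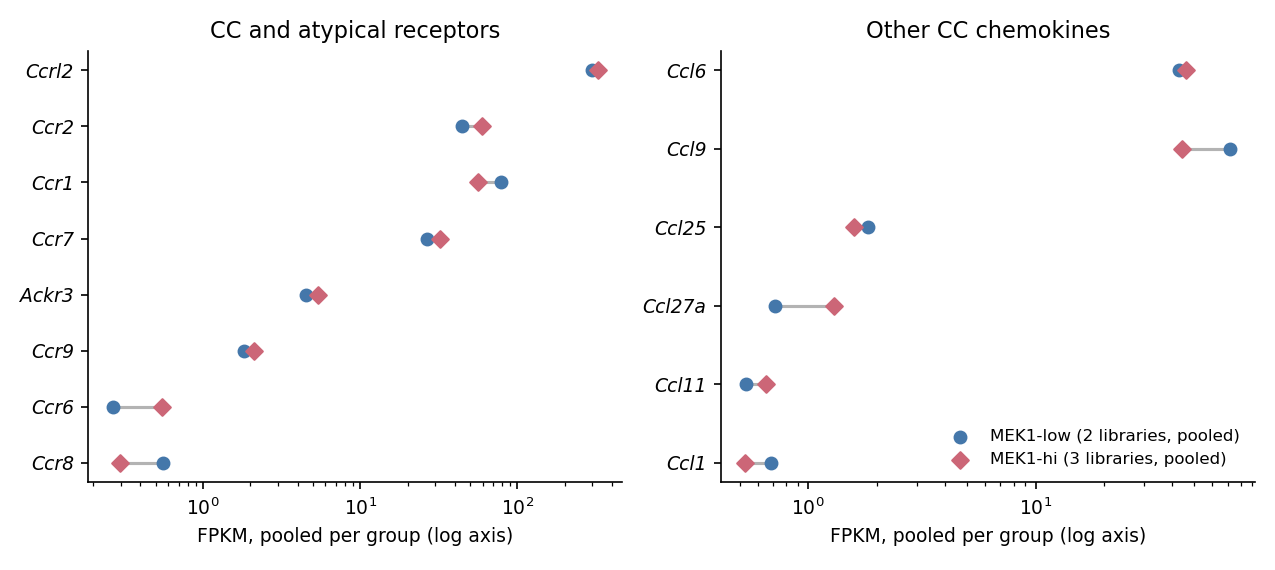
FPKM on log axes of the tested CC and atypical receptors (left) and of the tested CC chemokines outside the 10 (right), 1 pooled value per group, circles MEK1-low and diamonds MEK1-hi. Ccr8 and Ccr6 lie under 1 FPKM in both groups, and the Ccl9 values of 72.0 and 44.3 are the widest pair among the abundant ones.

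Downstream of these receptors, 29 of 29 genes for G protein subunits, kinases, arrestins and Rac regulators were tested and 0 were called by Cuffdiff. At an unadjusted p under 0.05 there were 3, all higher: Ptk2b (37.0 and 54.4 FPKM), Plcb2 (9.33 and 13.6) and Fgr (18.7 and 26.8) in the authors' deposited table. The median log2 fold change was 0.10, with 23 of 29 above 0, against 46.5% above 0 over all tested rows with an FPKM of at least 1. Rescaling to equal FPKM sums would lower every log2 fold change by 0.10.

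**Figure D5:**
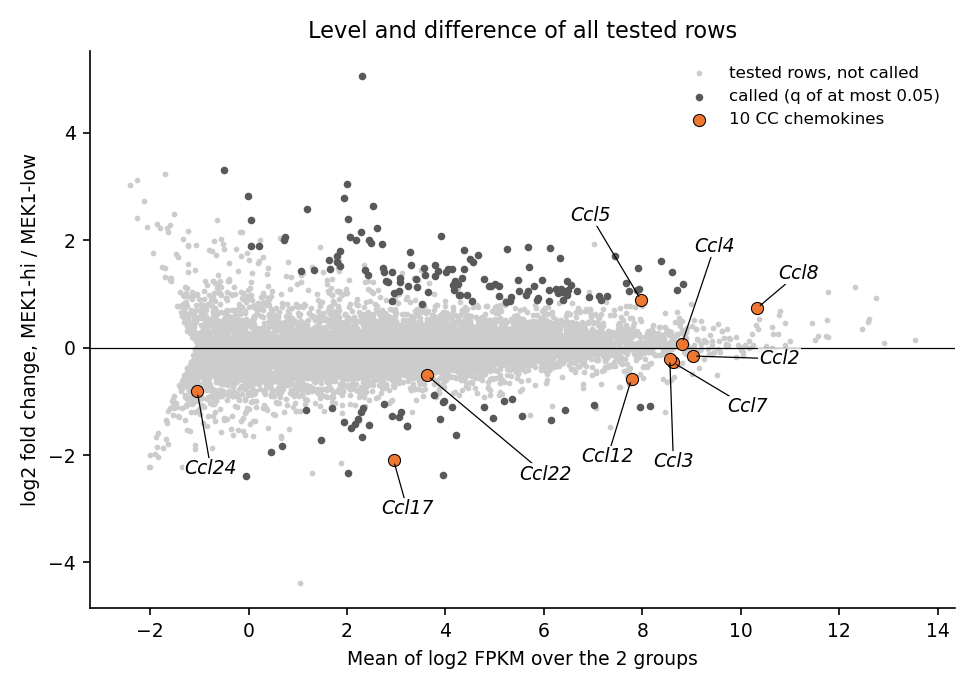
Mean of log2 FPKM over the groups (horizontal) against the log2 fold change (vertical) for all tested rows above 0 in both groups, with called rows dark and the 10 CC chemokines in orange. Ccl17 lies at -2.09 well below 0, Ccl5 at 0.89 on the edge of the called rows, and Ccl2, Ccl3, Ccl4 and Ccl7 within 0.28 of 0.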

How the data were processed

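Libraries were made from RNA of tumor macrophages, 3 for MEK1-hi and 2 for MEK1-low. Per the labels' protocols, 750 ng of RNA with an integrity number above 8.0 entered stranded poly(A) libraries, read as 100-base pairs. The tools named, per the submitters' processing notes, were TopHat, Cufflinks and Cuffdiff on mm10, with FastQC 0.73, and no role or order is stated. For strand and annotation, settings were not given in the sources used here.

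Values come from 1 Cuffdiff table in which the authors deposited an FPKM per group. Its test statistic is a score computed by the authors, who also deposited its p-value and q-value columns. The q equals a Benjamini-Hochberg adjustment over the 12311 tested rows. Log2 fold changes were computed from FPKM with no pseudocount. No count test or replicate test was possible on pooled FPKM values.

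The members and lists were chosen with earlier results of these data known. Named genes were the 10 members, the other CC chemokines and receptors that were called, had an unadjusted p under 0.05 or bind a member, called genes of other lists, genes within clusters (CC genes less than 200 kb apart) and the 3 genes nearest in log2 FPKM to each called member. Of the list symbols, Ccl21a, Ccl21b and the T cell marker Trac had no row of that name, and some genes of the receptor, signalling and monocyte lists are not reported here and stay out of those lists' values. Some further genes are named as markers, as list examples or to describe a position. Adjustment was tested on simulated data. Starts are written 1-based. RefSeq held upstream windows for 5 members. Motifs and the alignment (match 1, mismatch -1, gap -3 and -0.5 per further base) used Python 3.11.15 and Biopython 1.88, with numpy 2.4.6, pandas 2.3.3 and matplotlib 3.10.9. Alternatives changed the threshold, adjustment, filter, source of p, fold minimum, rows with several symbols, scaling and pseudocount.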

Additional observations from a re-analysis of the deposited data

How the results depend on the processing

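Of the 10 CC chemokines, 2 were called by Cuffdiff. The count was 0 at a q threshold of 0.01, 0 under the Benjamini-Yekutieli adjustment, 0 with a normal p from the deposited statistic, 1 (Ccl17) with a minimum of 2-fold and 4 at an unadjusted p under 0.05, a setting added after seeing the data. It stayed at 2, Ccl5 and Ccl17, at a q threshold of 0.10, with adjustment over rows of at least 1 FPKM, and without rows of several symbols. Of all tested rows, 163 were called, 91 at a q of 0.01, 0 under Benjamini-Yekutieli, 15 with the normal p and 749 at an unadjusted p under 0.05. The 91 are the rows at the smallest deposited p of 5e-05, and even these did not pass Benjamini-Yekutieli. The IL-4 and STAT6 list (2 called) had 0 under Benjamini-Yekutieli, 1 with the normal p and 6 unadjusted. The CXC, CX3C and XC chemokines (3 called) had 0, 0 and 6. Unadjusted counts were 1 for the other CC chemokines and 3 for receptor signalling (0 called). Of 40 member fold changes recomputed under other scalings or pseudocounts, 39 kept their direction. Ccl4 reversed to -0.0275 with equal FPKM sums. Leaving out each replicate was not run, because the table has 1 pooled value per group. No paired analysis was possible because the columns carry no replicate numbers. The depth reached is unknown, so detection limits for Ccl24 and the receptors under 1 FPKM cannot be given.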

Other observations

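Between the chromosome 11 chemokine clusters lies a stretch of 1346 kb with 19 tested rows, 8 of them Schlafen (Slfn) genes, a family known for roles in immune cell proliferation. Cuffdiff called 0 of the 19 in the authors' deposited table and 2 had an unadjusted p under 0.05, Slfn4 (17.4 and 10.8 FPKM in MEK1-low and MEK1-hi) and Slfn10-ps (8.02 and 4.96 FPKM). Log2 fold changes there ran from -0.69 to 0.51 with a median of -0.10. The most abundant Schlafen gene, Slfn2, had 419.5 and 439 FPKM.

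The genes nearest to Ccl5 in the plane of the groups' log2 FPKM values were Psmb8, an immunoproteasome subunit gene (188 and 337 FPKM), H2-DMa, which helps load MHC class II (186 and 327 FPKM), and Plbd1 (194 and 332 FPKM), at distances of 0.03, 0.07 and 0.09. Of these, Psmb8 was called (q = 0.0369) and H2-DMa (q = 0.0653) and Plbd1 (q = 0.165) were not, in the authors' deposited table. Nearest to Ccl17 were the collagen genes Col14a1 and Col18a1 and the ecto-nucleotidase gene Nt5e, all called lower and all at a distance of 0.59. They were thus less close to Ccl17, which was 4.27-fold lower. Col14a1 was 2.75-fold lower, Col18a1 2.41-fold and Nt5e 2.45-fold. The likeness rests on 2 pooled values per gene and is a description only.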
